A study of Homo sapiens with 4 samples.

Results

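The genes described are the subunits of the hypoxia-inducible factors (HIFs) and the enzymes that tie HIF to oxygen, iron and 2-oxoglutarate. They are the alpha subunits HIF1A, EPAS1 and HIF3A, the beta subunits ARNT and ARNT2, the prolyl hydroxylases EGLN1, EGLN2 and EGLN3, the asparaginyl hydroxylase HIF1AN, and VHL, the recognition subunit of the ubiquitin ligase that destroys hydroxylated alpha subunits. The rule for these 10 genes lists them by name and uses no measured value, although it was written with earlier results of these data known, and all 10 were among the 17660 genes or transcripts tested. Their RNA was measured in A549, a human lung adenocarcinoma cell line, in 2 untreated control samples and 2 samples given embelin (15 µM for 4 h), each on 1 array with 1 dye. Embelin is a plant benzoquinone with a long alkyl chain. Both groups were grown in the same medium, which was exchanged for one with less serum before treatment, and the labels call the controls untreated and name no vehicle. Nothing in the labels says that the samples of a group came from separate cultures, so p-values measure only the spread between these samples, which may be technical. All of it concerns 1 cell line, 1 dose and 1 time, and on bulk RNA fewer cells and less RNA per cell cannot be told apart.

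In well oxygenated cells the EGLN enzymes hydroxylate prolines of the alpha subunits, VHL then binds the hydroxylated protein, and the protein is degraded. HIF1AN hydroxylates an asparagine of the same subunits, which blocks their contact with the coactivators EP300 and CREBBP. When oxygen, iron or 2-oxoglutarate is short, the alpha subunits persist, pair with ARNT and switch on genes of glucose uptake, glycolysis, angiogenesis and pH control, and the hydroxylase genes EGLN1 and EGLN3 are themselves among the known targets. Most of this control acts on protein, whereas the arrays measured RNA only.

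The 10 genes were read by 20 probes, 60-base oligonucleotides fixed to the array, and for 17 of these the scanner software called the signal well above background on each of the 2 control arrays or each of the 2 embelin arrays. Probe sequences come from the array files, and a stretch of each is shown, 5′ to 3′, for the genes on which the results turn, so that it is clear what was hybridized. EGLN1 had 3 probes and EPAS1 had 2, and none of the 5 shared a run of 16 bases with a probe of another gene.
EGLN3 probe 1, bases 1 to 30: cacagagaggcatcacggaagccttaacag
EGLN1 probe 1, bases 1 to 30: gagggttgaactcaataaaccttcagattc
EGLN1 probe 2, bases 1 to 30: tgattgtcaaaatgtacagccacagccttt
EGLN1 probe 3, bases 1 to 60: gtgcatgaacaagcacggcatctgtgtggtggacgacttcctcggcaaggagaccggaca
EPAS1 probe 1, bases 1 to 30: acactgaaaaatattccaagcttcatatta
EPAS1 probe 2, bases 1 to 60: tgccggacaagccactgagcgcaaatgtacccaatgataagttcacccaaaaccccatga
HIF1A probe 1, bases 1 to 30: gttgtcacagtaaatatcttgttttttcta

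VHL had 2 probes, of which probe 1 shares sequence with probes of other genes and probe 2 shares no run of 16 bases with any.

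Signals are given as normalized log2 values, that is, after the 75th percentile of each array was set to a common level. Array-wide, 66.8% and 50.3% of probes were well above background on control replicates 1 and 2, and 51.2% and 66.4% on embelin replicates 1 and 2, so that each group held an array with fewer detected probes. The controls lay at slide positions 4 and 1 and the embelin samples at positions 2 and 3, and the groups therefore differ in position too. Of 8 epithelial genes typical of A549 all 8 were well above background on every array, with summed linear signals of 824536 and 859828 in the controls and 738254 and 746757 with embelin. Of 9 markers of blood, endothelial and fibroblast cells 3 were well above background on every array (ACTA2, CD14 and COL1A1). Summed signals over all 9 were 1862 to 2177 in the controls and 1620 to 2373 with embelin. Of the 5 tested 0 were called, where 1.81% of all genes were. Of these markers COL1A1, a fibroblast collagen, came closest to a call, with a limma adjusted p = 0.0548 for the gene. Its 3 probes had log2 fold changes of 1.30 to 1.84, with both embelin arrays above both controls. CD3E had 1.25, also with both embelin arrays above both controls, while CD14 had -0.60, ACTA2 -0.41 and PECAM1 -0.12. CD3E and PECAM1 were well above background on 1 of 2 control arrays and on both embelin arrays. None of the 9 markers was below background on every array, and their part in the results was not tested.

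Among the 10 genes EGLN3 rose, by 6.64-fold, and it was the only one with a change that passed limma's moderated test after Benjamini-Hochberg adjustment over all genes. Calls were made for 1 of the 10 in the higher and 0 in the lower direction, against 1.25% and 0.555% of the whole table (1.81% in all). Over single probes, with their own adjustment, 1.08% of kept probes were called and 0.829% were called higher, and EGLN3 was again the member among them (limma adjusted p = 0.0286). EGLN1 was 2.25-fold higher and just missed the adjusted threshold. EPAS1 was moderately higher and HIF1A moderately lower, each on both arrays but without an adjusted call. The beta subunits, EGLN2, HIF1AN and VHL (on probe 1, which shares sequence with other genes) had differences near or within the spread between arrays. With a 2-fold change and an unadjusted limma p under 0.05, the form of threshold in the study's methods, EGLN1 and EGLN3 passed, 2 of 10, both higher, against 4.26% of all genes higher and 3.99% lower (8.24% in all). An unadjusted p under 0.05 alone was met by 4 of the 10 (HIF1A, EPAS1, EGLN1 and EGLN3) and by 19.5% of all genes. The median log2 fold change was 0.02 over the 10 genes and -0.06 over all genes.

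**Figure D1:**
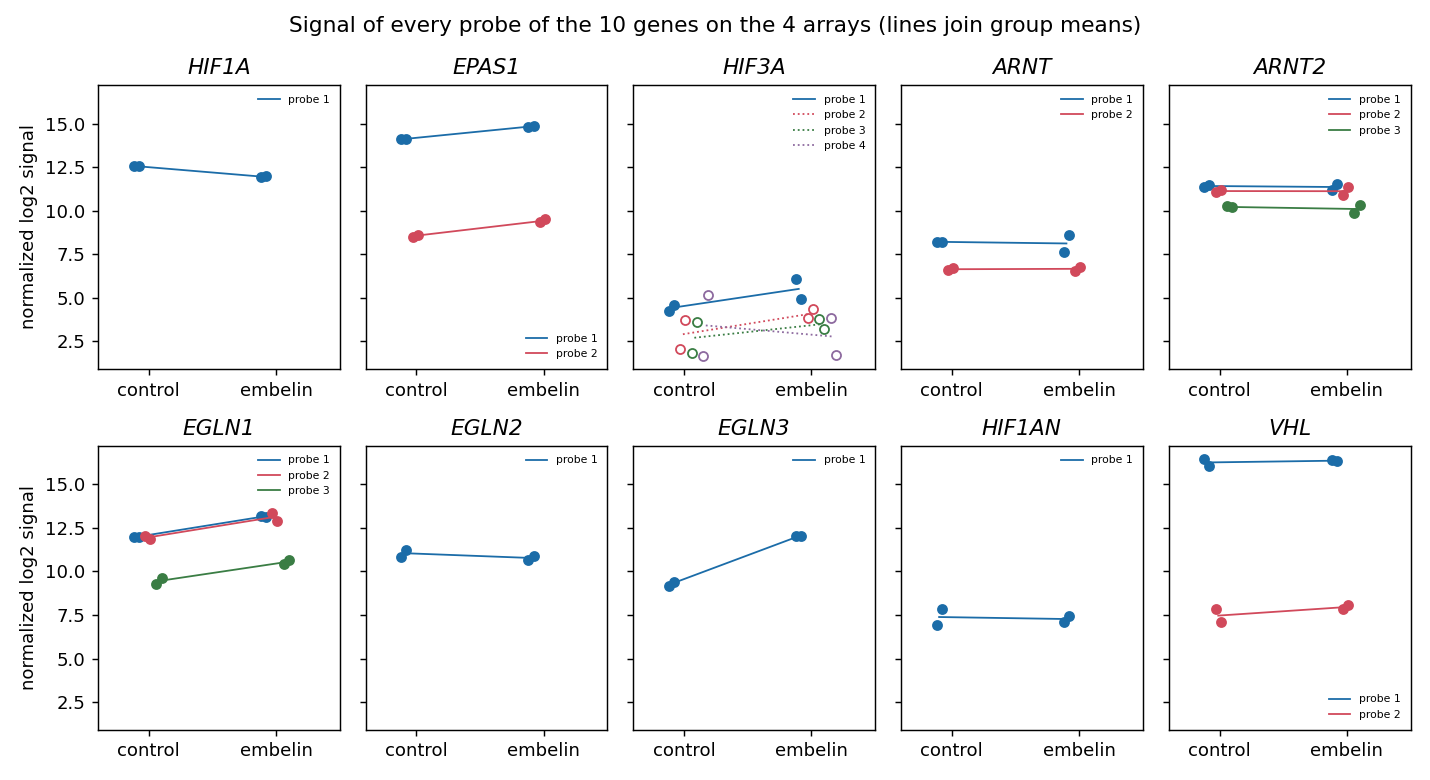
Normalized log2 signal (vertical axis) of every probe of the 10 genes on the 2 control and 2 embelin arrays, 1 point per array, with lines joining the group means. Filled points are probes kept for testing and open points probes that were not. EGLN3 and the 3 probes of EGLN1 lie higher with embelin, both EPAS1 probes lie higher by less, and HIF1A lies lower.

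EGLN3, a prolyl hydroxylase and a well known hypoxia-induced gene, had log2 signals of 9.17 and 9.41 in the controls. With embelin they were 12.02 and 12.02. Both embelin arrays lay far above both controls. The log2 fold change was 2.73 (SE 0.18, 95% interval 2.24 to 3.22, n = 2 and 2, limma adjusted p = 0.0234). Only a single probe read this gene. The change kept its direction under all 16 alternative settings, at 2.61 to 2.85, but the adjusted call was lost under 9 of them. Settings that alter only the filter, prior, test, block, position or use of several probes could not move it for this 1 probe. Its direction under those settings is no further evidence. Without control replicate 1, control replicate 2, embelin replicate 1 or embelin replicate 2 the limma adjusted p was 0.0590, 0.116, 0.171 and 0.0893.

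EGLN1 encodes the prolyl hydroxylase that sets HIF1A protein levels in most cells with normal oxygen. Its probe 1 read 11.96 and 11.99 in the controls and 13.16 and 13.14 with embelin. Probe 2 read 12.02 and 11.88 against 13.36 and 12.90, and probe 3, which lies in the coding sequence, 9.28 and 9.62 against 10.42 and 10.66. On each of the 3 probes both embelin arrays exceeded both controls. Their log2 fold changes were close to each other, at 1.17, 1.18 and 1.09. For the gene, represented by probe 1, the SE was 0.16, the 95% interval 0.74 to 1.60 and the limma adjusted p = 0.0570. The adjusted call was made under 3 of 16 alternatives and not under the other 13. The limma adjusted p was 0.0278 after normexp background correction, 0.0288 with only genes detected on all 4 arrays, and 0.00780 with a trended and robust prior. Among those without a call it was 0.107 with the replicate block, 0.214 with a block for like background and 0.153 with slide position. Without a filter on dim probes it was 0.429. With any 1 array left out the log2 fold change was 1.16 to 1.19.

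EGLN2 is the prolyl hydroxylase that is not regarded as hypoxia-induced. Its signals were 10.84 and 11.25 in the controls and 10.67 and 10.87 with embelin, so the groups overlapped. The log2 fold change was -0.28 (95% interval -0.88 to 0.33, limma adjusted p = 0.559). HIF1AN, the asparaginyl hydroxylase, read 6.90 and 7.87 against 7.09 and 7.45, again with overlap. Its log2 fold change of -0.12 had a wide 95% interval, -1.19 to 0.95, which does not leave out a 2-fold decrease.

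The alpha subunits moved in opposite directions in their values. HIF1A, the widely expressed alpha subunit, read 12.54 and 12.58 in the controls and 11.92 and 11.97 with embelin, with both embelin arrays lower than both controls. Its log2 fold change was -0.61 (SE 0.16, 95% interval -1.04 to -0.18), with an unadjusted p of 0.0168 and a limma adjusted p = 0.155. With any 1 array left out, 0 of the 4 fits gave HIF1A an unadjusted p under 0.05. EPAS1, which encodes the HIF2 alpha subunit, read 14.13 and 14.08 in the controls and 14.79 and 14.88 with embelin on probe 1. Probe 2, in the coding sequence, read 8.50 and 8.61 against 9.33 and 9.50. On both probes the groups were apart with embelin higher. The log2 fold changes were 0.73 for probe 1 (SE 0.16, 95% interval 0.29 to 1.17, limma adjusted p = 0.121) and 0.86 for probe 2 (SE 0.19). With a trended and robust prior EPAS1 was called, at limma adjusted p = 0.0258, and HIF1A was not, at 0.0596. Of the 16 alternatives EPAS1 was called under this 1 and not under the other 15, and HIF1A under 0. The highest limma adjusted p for EPAS1 was 0.587, without a filter on dim probes.

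HIF3A, an alpha subunit with isoforms that restrain the others, was near background. Only probe 1 of 4 was kept, and it was kept through the embelin group, being well above background on 1 of 2 control arrays and on both embelin arrays. It read 4.25 and 4.59 in the controls and 6.06 and 4.96 with embelin, with a log2 fold change of 1.09 (SE 0.43, limma adjusted p = 0.284). The embelin arrays were both above the controls but differed from each other by more than the controls did. Probe 2 was well above background on 0 of 2 control arrays and 1 of 2 embelin arrays, and probes 3 and 4 on 0 of 4 arrays.

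The beta subunits, which pair with the alpha subunits to bind DNA, gave overlapping groups on all of their 5 probes. ARNT probe 1 read 8.21 and 8.21 in the controls and 7.65 and 8.59 with embelin, so that the embelin arrays lay on either side of the controls. Its log2 fold change was -0.09 (95% interval -1.08 to 0.89, limma adjusted p = 0.924), and that of probe 2 was 0.02. ARNT2, a second beta subunit best known from neurons, read 11.38 and 11.46 against 11.16 and 11.56 on probe 1. On the log2 scale its 3 probes differed by -0.06, -0.01 and -0.12 between embelin and control, and the 95% interval for the gene, -0.63 to 0.52, leaves out a 2-fold change. Probes 1 and 3 of ARNT2 share 19 bases with 1 mismatch and so are not separate readings there.

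VHL was represented by probe 1, the one with the shared run, which read 16.47 and 16.03 in the controls and 16.37 and 16.34 with embelin. The groups overlapped, and the log2 fold change was 0.10 (SE 0.22, limma adjusted p = 0.854). Probe 2, without a shared run, read 7.82 and 7.11 against 7.85 and 8.06. Here both embelin arrays were above both controls, by a narrow margin, and the log2 fold change was 0.49 (SE 0.30, limma adjusted p = 0.480 over all probes). Of the 60 bases of probe 1, 31 lie in runs shared with 3 probes of 2 other names. The mean log2 signals of those 3 probes were 16.28 to 17.17, near that of probe 1 and far above probe 2. Their median log2 difference was -0.10. How far the signal of probe 1 comes from VHL was not tested, so its values may not describe VHL.

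**Figure D2:**
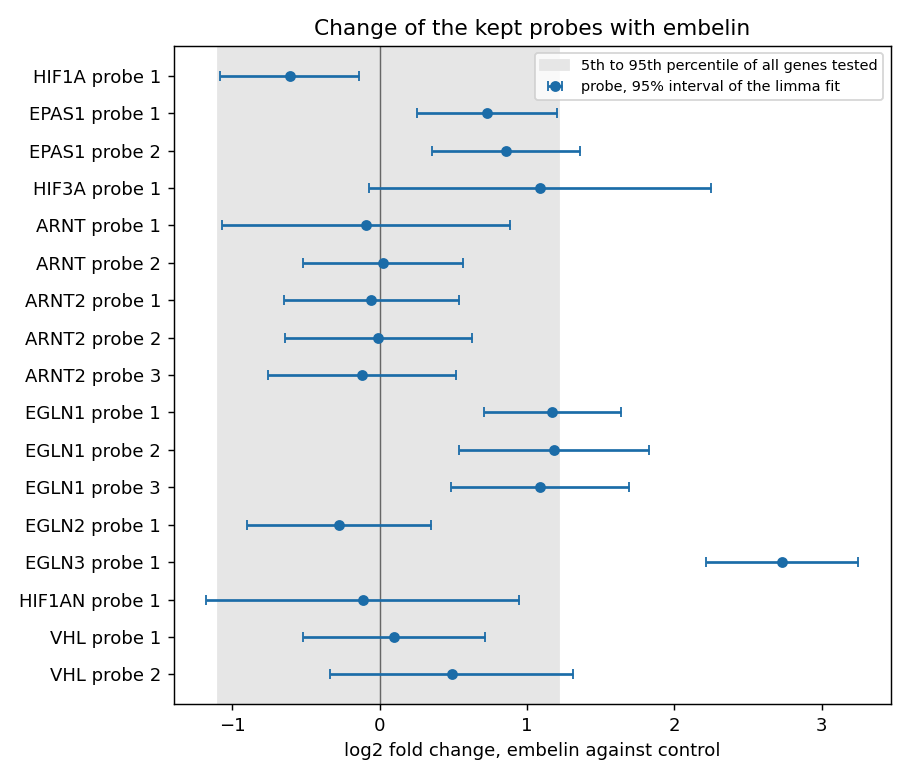
Log2 fold change of embelin against control (horizontal axis) for the 17 kept probes, with 95% intervals of the limma fit over probes. The grey band holds the 5th to 95th percentiles of all genes tested, -1.09 to 1.22, and EGLN3 is the probe that lies beyond it with its whole interval.

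Groups that do not overlap are common in these arrays, at 51.8% of genes with 4 values (21.1% with embelin higher and 30.7% lower). Of the 10 genes 4 lay apart higher and 1 apart lower, a share near that of all genes. The same signals can be set side by side within pairs of arrays with a like number of detected probes. Control replicate 1 and embelin replicate 2 formed one pair, and control replicate 2 and embelin replicate 1 the other. The log2 differences were 2.85 and 2.61 for EGLN3, 1.18 and 1.16 for EGLN1, 0.75 and 0.70 for EPAS1, and -0.56 and -0.66 for HIF1A. In these 4 genes the difference was about as large in each pair, which follows from their small spread within groups and is no further evidence. The pairs gave 0.37 and -0.56 for ARNT, 0.55 and -0.78 for HIF1AN, 0.18 and -0.29 for ARNT2, and -0.13 and 0.33 for VHL probe 1. For EGLN2 they gave 0.03 and -0.58, and for HIF3A 0.71 and 1.47.

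The genes with profiles most like that of EGLN3 over the 4 arrays were AMPD3, RIMKLA and ADM. Likeness was the Euclidean distance between log2 signals after each gene's mean was removed, over 15298 other genes detected on all arrays. The distances were 0.02 for AMPD3, 0.18 for RIMKLA and 0.18 for ADM, and 38 genes lay within 0.5. Their log2 fold changes were 2.71, 2.56 and 2.63.

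Promoter sequence is shown for EGLN1 and EGLN3 since these are the members with the largest changes among those detected on all arrays. The sequences are the 250 bases before the gene start, from RefSeq (build GRCh38.p14), and the motif searched was the core of the HIF binding site, ACGTG or GCGTG, on both strands. ACGTG overlaps the E-box CACGTG, which other bHLH factors bind. Capitals mark a match.
EGLN1, chr1:231422288-231422537, minus strand: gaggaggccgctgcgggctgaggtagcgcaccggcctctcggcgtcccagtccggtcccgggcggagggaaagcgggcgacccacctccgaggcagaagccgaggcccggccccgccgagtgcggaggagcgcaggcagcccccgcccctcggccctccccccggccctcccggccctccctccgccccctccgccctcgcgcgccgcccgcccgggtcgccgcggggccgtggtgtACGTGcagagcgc
EGLN3, chr14:33951075-33951324, minus strand: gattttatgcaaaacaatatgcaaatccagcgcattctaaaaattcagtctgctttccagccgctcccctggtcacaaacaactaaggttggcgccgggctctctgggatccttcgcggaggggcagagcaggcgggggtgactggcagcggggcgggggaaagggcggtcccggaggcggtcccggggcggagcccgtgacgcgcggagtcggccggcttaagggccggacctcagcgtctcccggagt
EGLN1 held 1 match, starting 13 bases before the gene start (position -13), and EGLN3 held 0 in this window. Of all 35116 promoters of this length 43.2% held at least 1 match. Entries were found for 8 of the 10 genes, 12 promoters in all, of which 5 held a match. A match is a run of letters and was not tested as a binding site.

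The proteins that act with VHL and the hydroxylases on HIF stability showed no adjusted call, with 0 of 18 higher and 0 lower. Of all genes 1.81% were called, so 0 of 18 is no result about this list. The median log2 fold change was -0.11. The other subunits of the VHL ligase complex had small differences, at -0.08 for ELOB, -0.06 for ELOC, -0.38 for CUL2 and 0.08 for RBX1. A second probe of ELOC gave 0.23, of the opposite sign. The 2 largest values in this list belonged to ubiquitin ligase proteins. WSB1, which has been described as acting on VHL, read 11.43 and 10.38 in the controls and 13.92 and 13.60 with embelin, with both embelin arrays higher (log2 fold change 2.85, SE 0.41, limma adjusted p = 0.0634). SIAH2, a ligase that targets EGLN proteins, was also higher on both embelin arrays than on both controls (log2 fold change 1.73, SE 0.32, limma adjusted p = 0.0930). Chosen after the values were seen, its paralog SIAH1 had a log2 fold change of 1.03 and the deubiquitinase USP20 of -0.95. With a 2-fold change and an unadjusted p under 0.05, 3 of the 18 were higher and 0 lower, where 4.26% and 3.99% of all genes were.

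Of 12 transcriptional cofactors and antagonists 10 were tested and 0 were called in either direction, with a median of 0.22. Beside the 1.81% of all genes called, 0 of so few is no result about this list or the next ones. The largest value was that of CITED2, a hypoxia-induced protein that competes with HIF for EP300 and CREBBP. It read 8.88 and 8.47 in the controls and 10.35 and 10.42 with embelin, so that the groups were apart by more than their spread (log2 fold change 1.71, SE 0.21, limma adjusted p = 0.0530). The coactivators themselves had log2 fold changes of 0.41 for CREBBP and 0.28 for EP300, and EP300 was well above background on 1 of 2 control arrays. Of 11 other proteins with the bHLH-PAS fold 9 were tested and 0 were called (median 0.06). The largest values were 0.68 for AHRR, a repressor of the aryl hydrocarbon receptor, and -0.50 for ARNTL, the clock partner also known as BMAL1. Of 18 genes for iron handling, 2-oxoglutarate metabolism and ascorbate transport, which supply the hydroxylases, 17 were tested and 0 were called, with a median of -0.20. The largest values were -0.63 for SLC23A2, an ascorbate transporter, and -0.58 for SLC11A2, an iron transporter. A second probe of SLC23A2 gave -0.05. None of the 4 antisense RNAs named for HIF1A and EGLN3 was found on the array by its identifier.

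Known HIF target genes are given next. The lists were written with earlier results of these data known, so their counts describe these arrays and are not independent evidence of a direction. Of 56 targets in 5 lists, with the 10 genes left out, 53 were tested. Of these 24 were called higher (45.3%, against 1.25% of all genes) and 0 lower, and the median log2 fold change was 1.75, against -0.06 over all genes. Of the 53, 4 (COX4I2, LOX, RORA and BHLHE41, named after their values were seen) passed the filter on dim probes only through the embelin group, and 0 of these 4 were called. Over the other 49 genes the median was also 1.75, and 47 had values above 0. Of the 24 genes called, 11 were read by more than 1 kept probe, and within each of the 11 all probes had the same sign. The adjusted calls were fragile and were lost whenever any 1 array was left out. This loss held for all genes tested and is not particular to the targets. The median log2 fold change of the targets was then 1.58 to 1.80.

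In glucose uptake and glycolysis 7 of 19 genes were called higher, where 1.25% of all genes were. All 19 had log2 fold changes above 0. HK2, which traps glucose as its phosphate, read 6.61 and 6.42 in the controls and 12.18 and 12.41 with embelin (log2 fold change 5.77, SE 0.19, limma adjusted p = 0.0205). PFKFB4, a regulator of glycolytic flux, rose by 3.64, the enolase ENO2 by 2.75 and the glucose transporter SLC2A1 by 1.83 on the log2 scale. LDHA, which makes lactate, did not pass the test (0.39, limma adjusted p = 0.297). Of the mitochondrial targets 3 of 7 tested were called higher, and all 7 had log2 fold changes above 0. The 3 called were PDK1, which holds pyruvate back from the mitochondrion, at 2.78, and the mitophagy receptors BNIP3L at 2.07 and BNIP3 at 1.80.

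Among targets for vessels and pH 5 of 8 tested were called higher, where 1.25% of all genes were. Of the 8, 7 had log2 fold changes above 0. VEGFA, the main angiogenic growth factor, read 8.77 and 8.33 in the controls and 12.49 and 11.87 with embelin, and the log2 fold changes of its 4 probes ran from 3.25 to 3.63. CA9, a carbonic anhydrase used as a marker of HIF activity, read 6.99 and 7.21 against 10.45 and 10.64 (log2 fold change 3.44). ANGPTL4, CXCR4 and ADM rose by 5.29, 3.83 and 2.63. EDN1, which encodes a vasoconstrictor and is named after its value was seen, went the other way with 14.67 and 14.48 against 13.45 and 13.31 (log2 fold change -1.20, limma adjusted p = 0.0653). It was the one target of the 53 with groups apart and embelin lower.

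For matrix enzymes 0 of 5 were called, where 1.81% of all genes were, and the median log2 fold change was 1.25. LOX, which crosslinks collagen, had a log2 fold change of 3.05 (limma adjusted p = 0.0666) and was well above background on 1 of 2 control arrays. P4HA1, a collagen prolyl hydroxylase, had 1.43 and a missing value on embelin replicate 1. In the list of feedback and stress genes 9 of 14 were called higher, where 1.25% of all genes were. All 14 had log2 fold changes above 0, the largest being 5.25 for STC2, 4.69 for NDRG1 and 4.10 for ANKRD37. STC2 is a secreted glycoprotein, and NDRG1 and ANKRD37 are widely used as hypoxia markers.

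**Figure D3:**
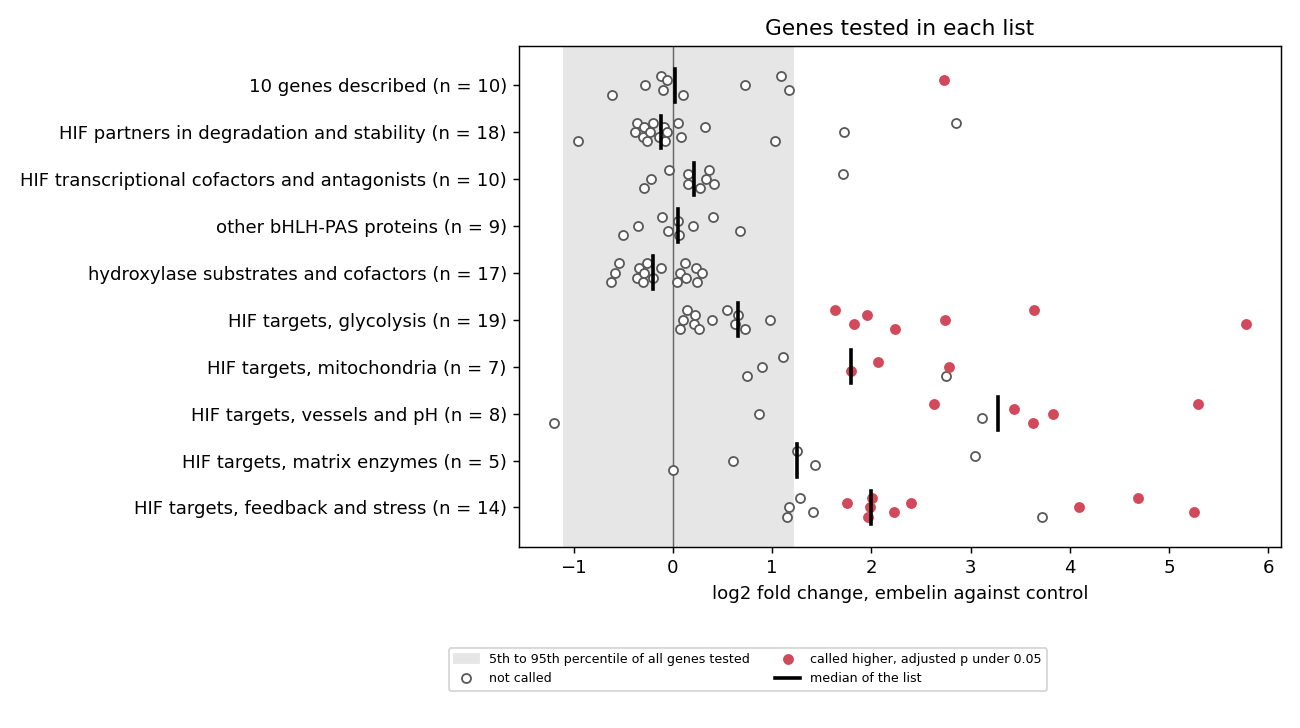
Log2 fold change of embelin against control (horizontal axis) of each gene tested, by list, with n tested in brackets. Filled points were called higher after adjustment, and open points were not called. Black bars are list medians, and the grey band holds the 5th to 95th percentiles of all genes. The 24 called targets lie to the right of the band. The lists of partners, cofactors, bHLH-PAS proteins and hydroxylase substrates hold 0 called genes, where 1.81% of all genes were called.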

How the data were processed

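RNA from 2 control and 2 embelin samples of A549 cells was labelled with Cy3 and hybridized to 1 array each. The authors deposited scanner intensities made by Feature Extraction 10.7.3.1, which subtracts background, and a table of the same intensities per probe; both lacked normalization across arrays. Here each array was scaled to a common 75th percentile, following the methods, with a floor of 1 before log2 was taken. Outlier spots were left out and spots of a probe averaged. A probe was kept if it was well above background (in any of its spots) on both control or both embelin arrays, and the kept probe with the highest mean stood for the gene.

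The groups were compared by lmFit and eBayes of limma 3.58.1 (R 4.3.3), with Benjamini-Hochberg adjustment over 17660 genes, or 26162 probes for values of single probes. Called means an adjusted p under 0.05. The number of arrays limits the precision. Tested on simulated data (17390 genes, 200 changed, 5 draws), this fit recovered 101 to 134 changed genes with 3 to 8 false calls. The planted changes were all larger than those of EGLN1, EPAS1 and HIF1A, so the recovery does not apply to changes of that size. The simulated noise was independent between arrays, without differences between arrays in detection.

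The members and the lists were chosen with earlier results of these data known. Named were all members, up to 3 called genes with the largest change in each list (or the 2 largest if none was called), a fixed set of partners and targets, and the 3 nearest profiles to the most changed member. Alternatives were normexp correction (offset 50), quantile normalization, the deposited table, other filters, other priors, the methods' t-test, blocks for replicate number or background, slide position, the mean over a gene's probes, each probe on its own, and leaving out each array. An alias shared with hepatic leukaemia factor was not taken for EPAS1. The sequence of 1 probe is not reported here.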

Additional observations from a re-analysis of the deposited data

How the results depend on the processing

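Of the 10 genes, 1 was called higher. The count was 2 with normexp background correction or with only genes detected on all 4 arrays, and 3 with a trended and robust prior. It was 0 without a filter on dim probes, by the methods' t-test, with the replicate block, with a block for like background, with slide position as a covariate, and in each fit that left out 1 array (0 to 0). Of the targets 24 were called higher, and 0 under each of these same settings that gave 0 members (0 to 0 with 1 array left out). Under the other settings the target count called higher was 16 with quantile normalization, 17 with the deposited table, 19 with each probe on its own and 20 with the mean over probes. It was 29 with the 4-array filter, 30 with normexp and 35 with the trended and robust prior. The target count called lower was 0, and 1 with normexp, the 4-array filter, and the trended and robust prior. With the replicate block 0 of all genes were called, although 3735 had an unadjusted p under 0.05. Replicate numbers did not pair the samples in the labels, and deviations of same-numbered samples correlated at 0.21 across probes, with only 2 pairs.

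Over all genes 221 were called higher and 98 lower. The counts were 422 and 278 with normexp, 128 and 32 with quantile normalization, 140 and 42 with the deposited table, 419 and 345 with the 4-array filter, 566 and 495 with the trended and robust prior, 162 and 56 with the mean over probes, and 217 and 65 with each probe on its own. They were 0 and 0 without the filter, by the t-test, with either block, with position, and without any 1 array, where 2120 to 3735 genes had an unadjusted p under 0.05. With 1 array left in a group, its spread is taken from the other group.

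EGLN3, EGLN1, EPAS1 and HIF1A kept their direction under all 16 alternatives, with log2 fold changes of 2.61 to 2.85, 1.15 to 1.19, 0.67 to 0.79 and -0.64 to -0.58. EGLN2 did too, and HIF3A under the 15 that could test it, at 0.35 to 1.64. The alternatives of filter, prior, test, block and position left these log2 fold changes as they were. Under those a kept direction is no further evidence. Without control replicate 2, HIF1AN turned to 0.37 and VHL probe 1 to -0.12. Without embelin replicate 1, ARNT turned to 0.37, ARNT2 to 0.14 and HIF1AN to 0.07. Over the fits with 1 array left out the log2 fold changes ran from -0.56 to 0.37 for ARNT and -0.25 to 0.14 for ARNT2. They ran from -0.60 to 0.37 for HIF1AN and -0.12 to 0.32 for VHL probe 1. The cause was not tested. Genes near background, such as HIF3A, have only an imprecise control level.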
